A study of Mus musculus with 6 samples.

Results

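The genes described here encode the CSMD and SEZ6 CUB-Sushi membrane proteins. The CSMD genes are Csmd1, Csmd2 and Csmd3, the SEZ6 genes are Sez6, Sez6l and Sez6l2, and the smaller Sushi gene Susd4 completes the set. They were taken by symbol from a gene count table of 55401 rows, through the GENCODE M21 annotation of the mouse genome, and all 7 passed the filter on low counts, which kept 19844 genes. The table came from bulk RNA sequencing of the cerebral cortex of mouse embryos of strain C57BL/6 at embryonic day 18. It held 3 libraries from embryos labelled as Csmd3 knockout (Csmd3-/-, homozygous) and 3 libraries from wild-type (WT) embryos, all obtained by crossing heterozygous mice. The sources used here do not give the part of Csmd3 that was disrupted. The labels do not say whether each library is a separate embryo, so the p-values measure the spread between these libraries, which may be technical.

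CUB and Sushi domains are extracellular protein modules, and the Sushi domain, also called the complement control protein repeat, is the building block of many regulators of complement. The CSMD proteins carry long arrays of both modules outside the cell, a single membrane-spanning segment and a short tail inside the cell, while the SEZ6 proteins carry fewer modules in the same order of parts. CSMD1 can limit complement activation by promoting the breakdown of deposited complement proteins. CSMD2 and CSMD3 have been tied to dendrite growth and synapses, and SEZ6 to dendrite branching and excitatory synapses. The ectodomains of SEZ6 and SEZ6L are released by the protease BACE1. SUSD4 binds complement proteins and, in mouse cerebellum, takes part in the turnover of AMPA-type glutamate receptors.

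The end of the coding sequence shows how the genes are related, and it is printed for all 7 because it groups them by the tail inside the cell. Each line gives the last 90 bases of the longest complete coding sequence in GENCODE M21 (mm10), stop codon included, 5′ to 3′ on the coding strand and after splicing. Capitals mark the codons of an NPxY motif (asparagine, proline, any residue, tyrosine), a short signal that adaptor proteins can bind in the tails of membrane receptors.
Csmd3: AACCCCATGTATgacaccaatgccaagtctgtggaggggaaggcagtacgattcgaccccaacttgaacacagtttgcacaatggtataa
Csmd1: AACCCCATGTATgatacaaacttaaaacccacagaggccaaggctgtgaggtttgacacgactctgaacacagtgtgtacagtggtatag
Csmd2: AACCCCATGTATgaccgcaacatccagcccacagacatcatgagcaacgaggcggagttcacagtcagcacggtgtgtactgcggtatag
Sez6l2: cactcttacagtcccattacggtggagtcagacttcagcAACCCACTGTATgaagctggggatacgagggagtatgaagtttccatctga
Sez6: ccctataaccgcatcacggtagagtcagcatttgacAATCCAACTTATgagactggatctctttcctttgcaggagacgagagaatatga
Sez6l: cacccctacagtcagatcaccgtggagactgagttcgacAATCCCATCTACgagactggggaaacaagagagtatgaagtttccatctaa
Susd4: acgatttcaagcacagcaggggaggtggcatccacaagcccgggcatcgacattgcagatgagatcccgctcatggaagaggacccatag

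The 3 CSMD genes held the motif in the same 12 bases, and each SEZ6 gene held it once in different codons. Susd4 held none in this window. The motif was looked for on the coding strand in the reading frame, and 50 of 21741 coding genes (0.23%) held it in their last 29 codons, the stretch printed here. The stretches lie at chr15:47582451-47582540 for Csmd3, chr8:15895717-15895806 for Csmd1 and chr4:128564079-128564168 for Csmd2. Those of Sez6l2 (chr7:126968197-126970082), Sez6 (chr11:77977788-77978045), Sez6l (chr5:112422009-112424682) and Susd4 (chr1:182892205-182895227) cross an intron. Complete coding sequences ran to 11121 bases in Csmd3, 10692 in Csmd1 and 10833 in Csmd2, against 2769 in Sez6l2, 2973 in Sez6, 2892 in Sez6l and 1470 in Susd4.

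Over aligned coding bases, Csmd3 was identical to Csmd1 at 65.5% and to Csmd2 at 62.8%, and Csmd1 to Csmd2 at 67.5%. Sez6l2 matched Sez6l at 62.8% and Sez6 at 61.6%, and Sez6 matched Sez6l at 62.2%. The longest identical run between the coding sequences of any pair of the 7 genes was 44 bases, between Csmd1 and Csmd3. It is printed here as a place where reads could be shared, and untranslated parts of exons were not searched.
Csmd1 and Csmd3: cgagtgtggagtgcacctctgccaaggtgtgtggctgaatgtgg
The longest coding run shared by Sez6l2 with any other of the genes was 23 bases, with Sez6l.
Sez6l2 and Sez6l: tgctacgagggctttgagctcat

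Deposited totals lay between 54244288 and 68269607 counts in knockout libraries and between 57531791 and 60716370 counts in wild-type libraries. About 4 deposited counts stand for 1 sequenced fragment. Knockout and wild-type libraries differed in markers of other cell types, as the plot of marker lists shows. Markers said to rise or fall in knockout had an edgeR adjusted p under 0.05. Of all tested genes, 5.21% rose and 2.53% fell by this threshold. Of 15 markers of meninges and mural cells, 14 rose. The summed level of the list was 876 to 1110 CPM (counts scaled to library size) in knockout libraries, against 162 to 163 CPM in wild-type libraries. The rises ranged from log2 fold changes of 0.67 (Rgs5) and 0.93 (Pdgfrb) to 5.18 (Col1a1) and 7.3 (Slc6a13). Acta2 was not called. The sum therefore does not describe every marker in the list alike. Of 12 macrophage and microglia markers 10 rose, with sums of 98.7 to 121 CPM in knockout and 36.6 to 42.9 CPM in wild type. The rises in this list were uneven. Log2 fold changes were 5.66 for Cd163, 5.0 for Mrc1 and 4.83 for Pf4, and from 0.71 (Cx3cr1) to 1.28 (Csf1r) for the others that rose. P2ry12 (0.22) and Aif1 (0.77) were not called. Of 9 endothelial markers 6 rose (429 to 524 CPM in knockout, 261 to 295 CPM in wild type). Choroid plexus markers set knockout library 3 apart: their sum was 522 CPM there, 34.7 and 65.0 CPM in knockout libraries 1 and 2, and 7.72 to 8.86 CPM in wild type, where Folr1 and Cldn2 were at 0. Of 14 progenitor and dividing-cell markers 7 rose (1910 to 2010 CPM in knockout, 1540 to 1710 CPM in wild type). Of 18 pan-neuronal markers 7 fell, and the sum of the 18 was 7820 to 9250 CPM in knockout, against 10200 to 12000 CPM in wild type. This sum holds 2 abundant genes that were uneven within a group and were not called. Mapt had 95120, 81906 and 17816 deposited counts in knockout libraries 1, 2 and 3. Map2 had 69397, 51417 and 29528 in wild-type libraries 1, 2 and 3. Markers of cortical projection neurons were present in every library 1 of 15 fell, and their sums overlapped, at 4200 to 4770 CPM in knockout and 4120 to 4450 CPM in wild type. None of 8 erythroid markers passed the threshold in edgeR (1 had an unadjusted p under 0.05, and their sums were 1890 to 2200 CPM in knockout and 1520 to 2110 CPM in wild type). Of 12 interneuron markers 2 fell, and of 9 markers of the astrocyte and oligodendrocyte lineage 1 rose and 2 fell. The part of these differences in the values that follow was not tested, and in bulk tissue fewer cells of a type and less RNA per cell cannot be told apart.

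**Figure D1:**
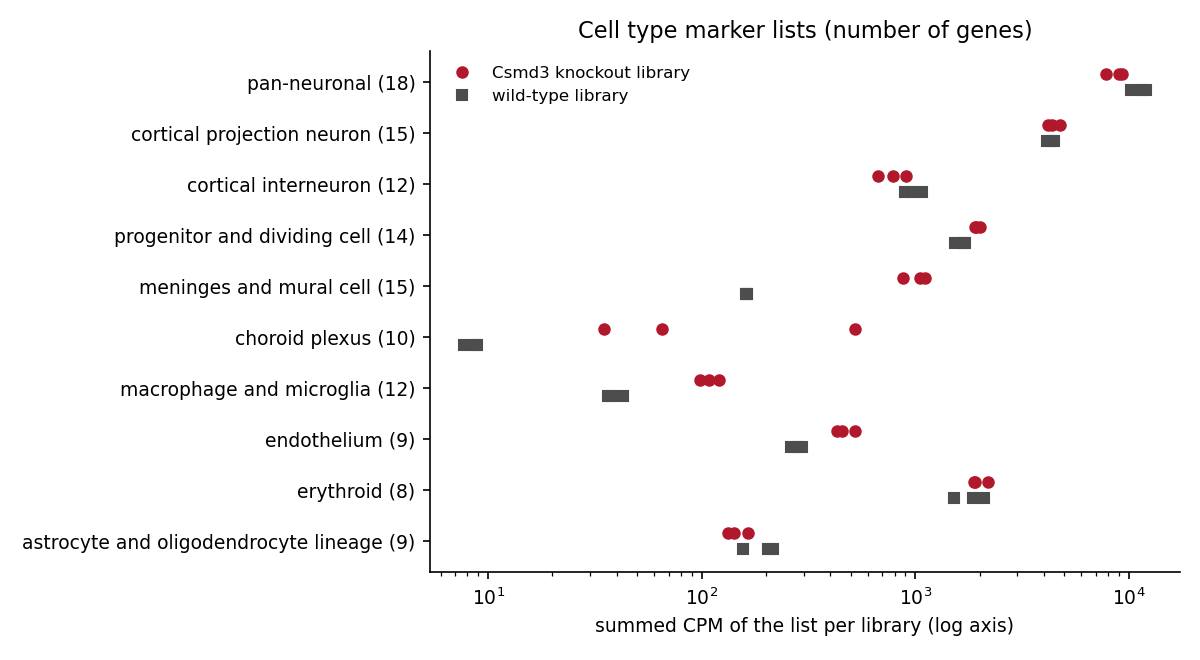
Summed CPM (log axis) of 10 cell type marker lists in each library, with the number of listed genes in parentheses; circles are knockout libraries and squares wild-type libraries. Meningeal, choroid plexus, macrophage and endothelial sums of all 3 knockout libraries lie above those of wild type, pan-neuronal sums lie below, and projection neuron sums overlap.

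The comparison of knockout with wild type addresses whether the targeted gene and its relatives differ in level. Csmd3 and Sez6l2 fell in knockout cortex, by 0.59 and 0.46 on the log2 scale. The other 5 genes, Csmd1, Csmd2, Sez6, Sez6l and Susd4, did not pass the threshold (edgeR's quasi-likelihood test, Benjamini-Hochberg adjusted p under 0.05), and 0 of the 7 rose. Of all tested genes, 7.74% passed the same threshold, 2.53% lower and 5.21% higher. As Csmd3 is the targeted gene, 1 of its 6 relatives passed. Fitted log2 fold changes were below 0 for 6 of the 7 and for 49.7% of all tested genes. The median was -0.28 over the 7 and 0.0 over all tested genes. It was -0.31 over the 18 pan-neuronal markers, of which 7 fell, -0.32 over the 12 interneuron markers and 0.07 over the 15 projection neuron markers. A low median is thus not particular to the 7 genes. With libraries scaled to the pan-neuronal markers instead, which moved the median of all tested genes by 0.37, neither Csmd3 (-0.22) nor Sez6l2 (-0.09) passed, Sez6 rose (0.40, adjusted p = 0.0166), and Csmd1 (0.03), Csmd2 (0.31), Sez6l (0.12) and Susd4 (0.10) turned above 0. The scaling rests on the summed counts of the markers, the uneven Mapt and Map2 among them, which limits the values it gives. Relative to that shifted median of all tested genes, Csmd3 was at -0.59, Sez6l2 at -0.46 and Sez6 at 0.03. These values repeat the main fit by construction, since rescaling moves all genes by about the same amount.

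Csmd3 (ENSMUSG00000022311.15, chr15:47580637-48792063, minus strand, mm10, 73 exon blocks) was reduced but not absent. It had 675, 653 and 543 deposited counts in knockout libraries 1, 2 and 3, against 992, 765 and 867 in wild-type libraries 1, 2 and 3. Scaled to library size, these were 9.82, 10.3 and 9.8 CPM in knockout and 16.6, 13.2 and 15.1 CPM in wild type. Every knockout library lay below every wild-type library, as was the case for 29.1% of all tested genes in either direction and for 13.5% in this one. The knockout mean was 9.98 ± 0.294 CPM and the wild-type mean 15 ± 1.72 CPM (SD, n = 3 each). The log2 fold change was -0.59 (SE 0.13, edgeR adjusted p = 0.0233), which leaves 66.6% of the wild-type level (95% interval 54.6% to 81.3%). Among all tested genes, 7.48% had a lower log2 fold change. A library held 136 to 248 Csmd3 fragments, so counting alone gives a standard error of 6.35% to 8.58% of a library's value. The knockout SD, at 2.95% of its mean, is smaller than that and understates the error. The counts are for the whole gene, with no values per exon, so they check the genotype labels only weakly. With a replicate block the log2 fold change was -0.58 (edgeR adjusted p = 0.0664). The edgeR adjusted p was 0.0905, 0.0741 or 0.101 without knockout library 1, 2 or 3 and 0.0826 without wild-type library 1. The log2 fold change stayed between -0.67 and -0.52 when any 1 library was left out. Without knockout libraries 2 and 3 together it was -0.60 (adjusted p = 0.38, 1 knockout library left).

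Csmd1, the relative best known as a complement inhibitor, had values of 19.9, 15.6 and 20.2 CPM in knockout, against 29.6, 22.3 and 19.2 CPM in wild type (ENSMUSG00000060924.15, chr8:15892537-17535586, minus strand). The groups overlapped, because wild-type library 3 lay below knockout libraries 1 and 3. The means were 18.5 ± 2.58 CPM in knockout and 23.7 ± 5.35 CPM in wild type, a log2 fold change of -0.35 (SE 0.17, edgeR adjusted p = 0.265). Its 95% interval, -0.74 to 0.03, holds both the change of Csmd3 and no change.

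Csmd2, whose protein is found at synapses, was the most abundant of the CSMD genes (ENSMUSG00000028804.20, chr4:127987857-128567656, plus strand). It had 124, 110 and 120 CPM in knockout and 141, 110 and 118 CPM in wild type, with overlapping groups. The means of 118 ± 7.23 CPM in knockout and 123 ± 15.8 CPM in wild type gave a log2 fold change of -0.06 (SE 0.10, edgeR adjusted p = 0.79). The 95% interval of -0.28 to 0.16 does not reach the fitted change of Csmd3.

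Sez6l2 (ENSMUSG00000030683.11, chr7:126950563-126970606, plus strand), whose protein binds AMPA receptor and adducin proteins and is a target of autoantibodies in human cerebellar ataxia, fell. It had 9425, 8156 and 6739 deposited counts in knockout and 12082, 9443 and 9595 in wild type. In CPM these were 137, 129 and 122 in knockout, against 202, 163 and 167 in wild type. The groups did not overlap. The knockout mean was 129 ± 7.81 CPM and the wild-type mean 178 ± 21.7 CPM (SD, n = 3 each), and the log2 fold change was -0.46 (SE 0.09, edgeR adjusted p = 0.0184). This is 72.8% of the wild-type level, with a 95% interval of 62.9% to 84.2%. The adjusted p was 0.0755 without knockout library 2 and 0.103 without knockout library 3, and log2 fold changes with any 1 library left out were -0.52 to -0.37. Without knockout libraries 2 and 3 together it was -0.36 (adjusted p = 0.509). The provisional gene Gm21984 overlaps 413 exon bases of Sez6l2 on the same strand, but it held at most 27 counts in a library, and adding its counts left the log2 fold change at -0.46.

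Sez6, the founding member named for its induction by seizure, was the most abundant of the 7 and showed no comparable difference (ENSMUSG00000000632.13, chr11:77930800-77979048, plus strand). Its values were 531, 527 and 478 CPM in knockout and 573, 492 and 442 CPM in wild type, so the knockout libraries lay within the wild-type range. The means were 512 ± 29.2 CPM in knockout and 502 ± 65.9 CPM in wild type. The log2 fold change was 0.03 (SE 0.10, edgeR adjusted p = 0.91) with a 95% interval of -0.19 to 0.24, which does not reach the fitted change of Sez6l2.

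Sez6l (ENSMUSG00000058153.15, chr5:112419151-112577185, minus strand), another substrate of BACE1, had groups that overlapped. It had 135, 126 and 93.2 CPM in knockout and 162, 141 and 116 CPM in wild type, and knockout libraries 1 and 2 lay above wild-type library 3. The means were 118 ± 21.9 CPM in knockout and 139 ± 23.1 CPM in wild type, and the log2 fold change was -0.24 (SE 0.17, edgeR adjusted p = 0.477, 95% interval -0.64 to 0.16). The knockout library with the lowest Sez6l value is library 3, the one with the highest choroid plexus sum. Wild-type library 3 also had the lowest Sez6l value of its group, with a choroid plexus sum of 8.75 CPM. The part of that tissue in the values was not tested.

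Susd4 (ENSMUSG00000038576.15, chr1:182763860-182896591, plus strand) had 35.1, 34.7 and 37.4 CPM in knockout and 47.8, 43.5 and 39.0 CPM in wild type. Each knockout library lay below each wild-type library, with a narrow gap between 37.4 CPM in knockout library 3 and 39.0 CPM in wild-type library 3. The means were 35.7 ± 1.46 CPM in knockout and 43.5 ± 4.4 CPM in wild type. The log2 fold change was -0.28 (SE 0.10, unadjusted p = 0.0156, edgeR adjusted p = 0.116), so the gene did not pass over all tested genes. Without wild-type library 3 it was -0.35 (adjusted p = 0.0369). In all, 3 of the 7 genes had groups that did not overlap, against 29.1% of all tested genes, and in all 3 the knockout was lower, against 13.5% of all tested genes.

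**Figure D2:**
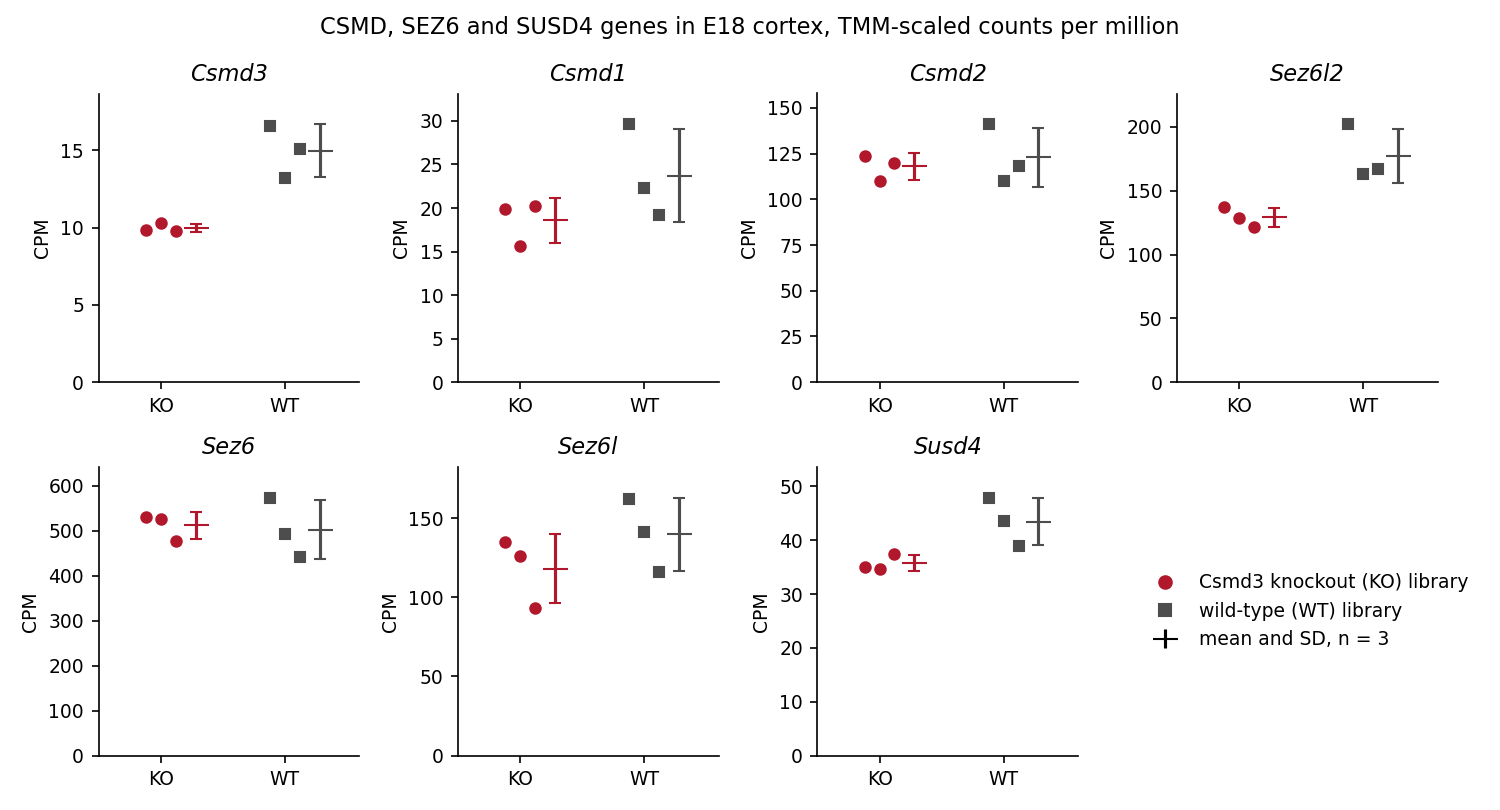
CPM of each of the 7 genes in the 3 knockout (KO, circles) and 3 wild-type (WT, squares) libraries, with mean and SD beside the points; each vertical axis starts at 0. The groups are apart for Csmd3, Sez6l2 and Susd4 and overlap for Csmd1, Csmd2, Sez6 and Sez6l.

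**Figure D3:**
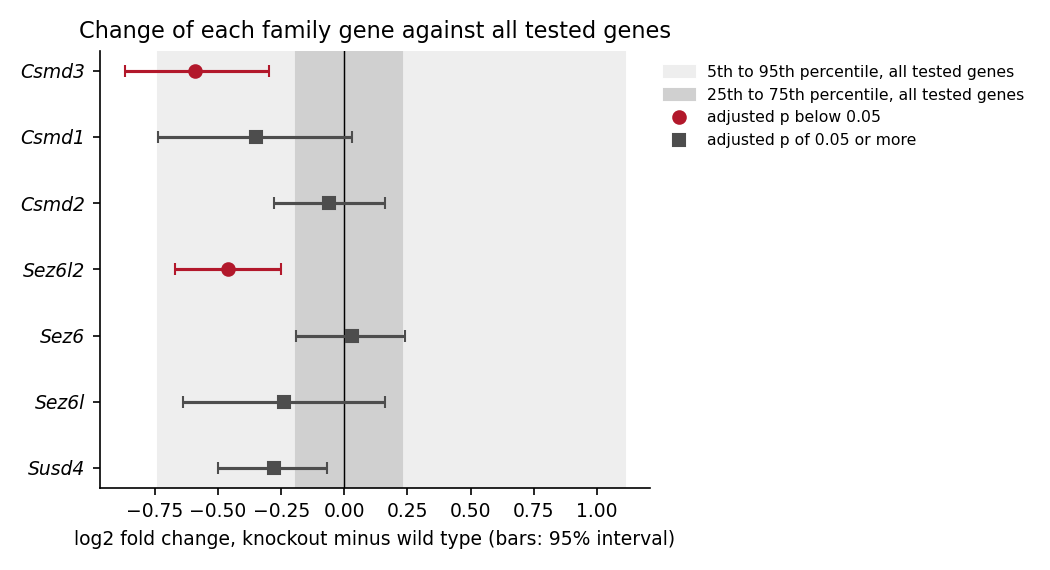
Log2 fold change of each gene, knockout minus wild type, with its 95% interval; grey bands give the middle range of all 19844 tested genes. Csmd3 at -0.59 and Sez6l2 at -0.46 passed the threshold, and both points lie inside the 5th to 95th percentile of all tested genes (-0.74 to 1.11).

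Divided by the length of their annotated exons, the genes spanned a wide range of levels in a fixed order, Sez6, Sez6l2, Sez6l, Susd4, Csmd2, Csmd1 and Csmd3. This order was the same in 6 of 6 libraries. Sez6 stood at 88.6 ± 5.05 CPM per kilobase in knockout and 86.9 ± 11.4 in wild type, Sez6l2 at 30.7 ± 1.85 in knockout and 42.2 ± 5.15 in wild type, and Sez6l at 19.4 ± 3.61 in knockout and 23.0 ± 3.8 in wild type. Susd4 had 9.26 ± 0.378 CPM per kilobase in knockout and 11.3 ± 1.14 in wild type. Among the CSMD genes, Csmd2 had 6.9 ± 0.424 in knockout and 7.19 ± 0.928 in wild type, Csmd1 0.974 ± 0.136 in knockout and 1.25 ± 0.281 in wild type, and Csmd3 0.591 ± 0.0174 in knockout and 0.887 ± 0.102 in wild type. Neighbours in this order did not overlap in their library values within either group. The ratio of means was 1.34 in knockout and 1.57 in wild type for Susd4 over Csmd2, 1.58 in knockout and 1.84 in wild type for Sez6l2 over Sez6l, and 1.65 in knockout and 1.4 in wild type for Csmd1 over Csmd3. Csmd3, the gene targeted in this strain, was thus the least expressed of the 7 in the wild-type cortex, 98.0-fold below Sez6 by length-scaled means.

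The make-up of each family does not depend on how libraries are scaled to one another. Csmd3 made up 6.56%, 7.78% and 6.69% of the summed per-length level of the CSMD genes in knockout libraries 1, 2 and 3, against 9.14%, 9.3% and 10.2% in wild-type libraries 1, 2 and 3. The mean share was 7.01 ± 0.67% in knockout and 9.54 ± 0.569% in wild type (SD, n = 3 each; exact permutation test, two-sided p = 0.1, the smallest that 3 against 3 libraries allow). Csmd2 made up 81.5 ± 0.375% in knockout and 77.2 ± 1.02% in wild type (exact p = 0.1), and Csmd1 11.5 ± 0.941% in knockout and 13.3 ± 1.59% in wild type (exact p = 0.3). Within the CSMD family the groups were apart for Csmd3 and Csmd2 and overlapped for Csmd1. The shares of a family add up to the whole, so they are not separate observations. The higher Csmd2 share goes with lower shares of the others, while the level of Csmd2 had a log2 fold change of -0.06.

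Sez6l2 made up 22.2%, 21.5% and 22.7% of the summed per-length level of the SEZ6 genes in knockout, against 27.7%, 26.3% and 29.4% in wild type. Its mean share was 22.2 ± 0.631% in knockout and 27.8 ± 1.54% in wild type (exact permutation p = 0.1). Sez6 took 63.9 ± 1.27% in knockout and 57.2 ± 0.681% in wild type (exact permutation p = 0.1), and Sez6l 13.9 ± 1.62% in knockout and 15.1 ± 0.894% in wild type (exact permutation p = 0.4). Sez6l2 and Sez6 had groups that did not overlap. These shares depend on each other in the same way, and the level of Sez6 had a log2 fold change of 0.03. Adjusted over the 6 shares tested, the smallest exact permutation p was 0.15, so no share passes a threshold of 0.05 in a design of this size.

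**Figure D4:**
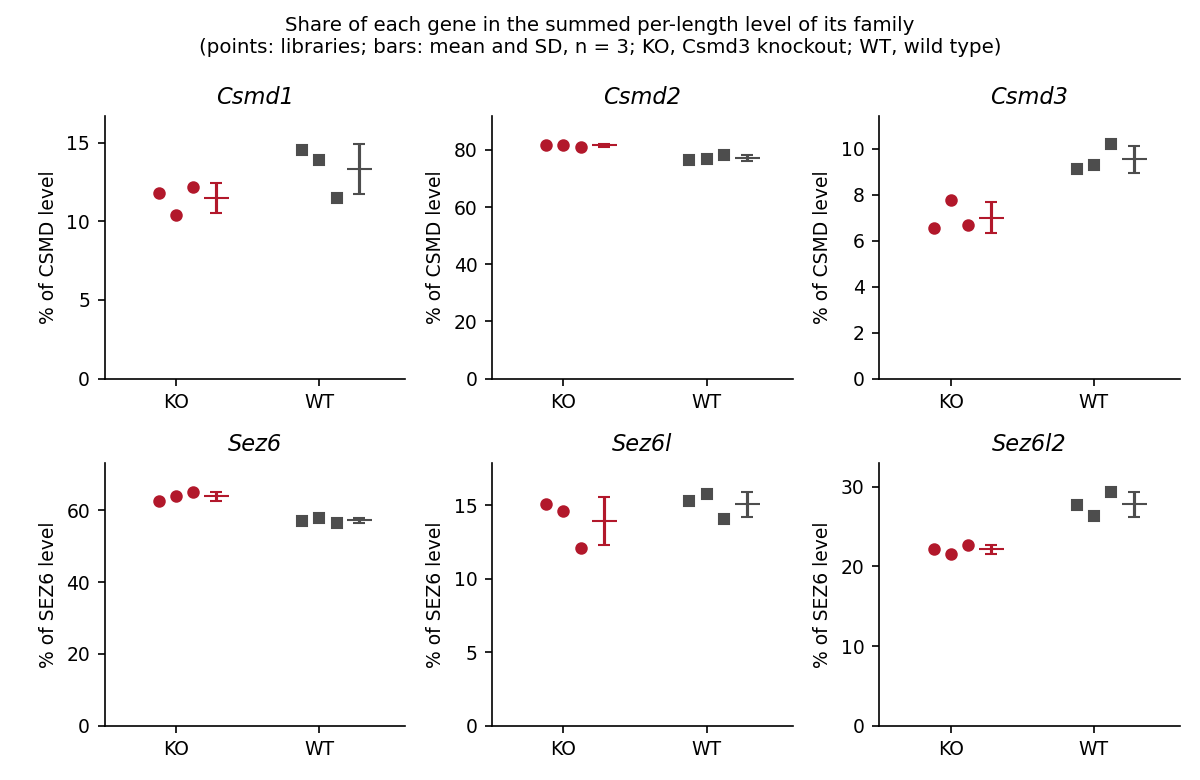
Share (%) of each gene in the summed per-length level of the CSMD genes (top) and SEZ6 genes (bottom) in knockout (KO, circles) and wild-type (WT, squares) libraries, with mean and SD. Shares of Csmd3 and Sez6l2 are lower in all 3 knockout libraries than in any wild-type library, and shares of Csmd2 and Sez6 are higher. Shares of a family add up to the whole, so these are not separate observations.

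The likeness of profiles over the 6 libraries was taken as the root-mean-square difference of log2 CPM after centring each gene on its own mean, so that a small value means a similar profile. It is a description only, since all genes share the same 6 libraries, and it takes in the difference between the groups, so genes with similar fold changes are near each other by construction. Of 12356 candidate genes, Sez6l2 was 17th nearest to Csmd3, at 0.097, against 0.189 for Susd4, 0.241 for Csmd1, 0.27 for Sez6l, 0.276 for Csmd2 and 0.326 for Sez6. The genes nearest to Csmd3 were Rims3, which encodes a protein of the presynaptic active zone (0.062, log2 fold change -0.65, edgeR adjusted p = 0.0253), and Mlip (0.072, log2 fold change -0.60, edgeR adjusted p = 0.0389). Those nearest to Sez6 were Ptprf (0.034), a receptor tyrosine phosphatase gene, Elk1 (0.04) and Leng8 (0.042), and those nearest to Sez6l were Map3k5 (0.03), Pcdhgb2 (0.044) and Fdx1l (0.062). None of the 6 passed the threshold in edgeR.

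Of 32 other genes with CUB domains, 29 were tested. Of these 2 rose and 0 fell, a share close to the 7.74% of all tested genes that passed, and the median log2 fold change was 0.10, against 0.0 over all tested genes. The 2 were Pcolce, which encodes an enhancer of procollagen processing (8.2 ± 1.24 CPM in knockout, 1.34 ± 0.216 CPM in wild type, log2 fold change 2.61, SE 0.21, edgeR adjusted p = 0.000107), and the endocytic receptor gene Cubn (2.56, SE 0.52). Exons of both overlap other annotated genes, which makes their counts less certain. Of the 29, 7 had an unadjusted p under 0.05, and 0 were lower in edgeR against 2 in DESeq2. The list had 1 higher gene without knockout library 1 or 3 or wild-type library 2, and 1 lower gene without wild-type library 3.

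Among other genes with Sushi domains, Svep1 had a fitted log2 fold change of 5.90 (SE 0.40), which rests on few wild-type counts. Of 32 listed, 22 were tested, 4 rose and 1 fell, where 5.21% of all tested genes rose and 2.53% fell, and their median log2 fold change was 0.35. Svep1, an extracellular matrix gene, had 602, 360 and 358 deposited counts in knockout and 4, 12 and 4 in wild type. Its exons overlap a gene on the opposite strand by 2244 bases, which makes its counts less certain. Srpx2, a secreted Sushi protein gene, had 68, 42 and 27 counts in knockout and 0 in each wild-type library, at least 10.7-fold higher against a floor of 12 counts (3 fragments) over the wild-type group, and Susd6, named although the naming rule did not choose it, was at 0.33 (SE 0.08, edgeR adjusted p = 0.0275). The gene that fell was Bcan, which encodes the brain proteoglycan brevican (33.6 ± 3.7 CPM in knockout, 45.5 ± 5.03 CPM in wild type, log2 fold change -0.44, SE 0.11, edgeR adjusted p = 0.0498). Without wild-type library 3 the list had 2 lower genes, and without any 1 of the other 5 libraries, or with upper-quartile scaling, it had 0. In the same knockout libraries, 14 of 15 meningeal and mural markers rose, and the part of these cells in the list was not tested.

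The list of complement proteins, receptors and regulators gave 5 higher and 0 lower genes of 18 tested, of 23 listed. Of all tested genes, 5.21% were higher and 2.53% lower. DESeq2 also called 0 lower, and 9 in all had an unadjusted p under 0.05 in edgeR. The median log2 fold change of the list was 0.66. C3 (12, 36 and 12 counts in knockout, 33, 10 and 17 in wild type) was not called. C4b (52, 12 and 4 counts in knockout, 16, 7 and 10 in wild type) was not called either. The initiator chains C1qa (1.17, SE 0.17), C1qc (0.95, SE 0.17) and C1qb (0.85, SE 0.17, outside the naming rule) rose, as did Serping1, which encodes the C1 inhibitor (0.92, SE 0.16). C5ar1, the receptor for the complement fragment C5a, had 79, 71 and 47 counts in knockout and 7, 0 and 0 in wild type, a ratio of 22.9 with a 95% counting interval of 6.0 to 194. Macrophage and microglia markers, among which C1qa, C1qb and C1qc themselves are listed, rose in 10 of 12 cases in these libraries, and their part in this list was not tested. Calls depended on single libraries. Higher genes numbered 1 when knockout library 3 was left out, 2 when knockout library 1 was, 3 when wild-type library 1 was, and 0 when knockout libraries 2 and 3 both were.

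The list of proteases that shed SEZ6 proteins and of their other substrates had 24 genes, all tested. Of these 2 rose and 1 fell, where 7.74% of all tested genes passed, and the median log2 fold change was 0.05. Bace1, the gene of the main SEZ6 protease, was not called (98.0 ± 34.0 CPM in knockout, 138 ± 12.3 CPM in wild type, -0.50, SE 0.25, edgeR adjusted p = 0.331). Bace2 had 78, 57 and 34 deposited counts in knockout and 9, 15 and 4 in wild type (2.45, SE 0.59, edgeR adjusted p = 0.0355). The sheddase gene Adam17, whose exons overlap a gene on the opposite strand, was at 0.36 (SE 0.10, edgeR adjusted p = 0.0496). Aplp1, a neuronal relative of the amyloid precursor protein, had 554 ± 13.6 CPM in knockout and 738 ± 68.3 CPM in wild type (-0.41, SE 0.08, edgeR adjusted p = 0.0131). With each single library left out in turn the list had 0 to 3 higher genes and 0 or 1 lower gene, with 0 higher genes without any 1 of the knockout libraries or wild-type library 1, 1 higher without wild-type library 2, and 0 lower without knockout library 1 or 3.

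Of 21 reported partners of SEZ6 proteins and SUSD4, all tested, 2 rose, 2 fell and 17 did not pass, where 7.74% of all tested genes passed, and the median log2 fold change was -0.12. Nedd4, a ubiquitin ligase gene of the family bound by SUSD4, had 521 ± 23.2 CPM in knockout and 400 ± 34.3 CPM in wild type (0.38, SE 0.08, edgeR adjusted p = 0.018), and Add3, an adducin gene, was at 0.38 (SE 0.09, edgeR adjusted p = 0.037). The kainate receptor subunit gene Grik4 had 3.59 ± 0.736 CPM in knockout and 7.16 ± 1.18 CPM in wild type (-1.0, SE 0.21, edgeR adjusted p = 0.019). Leaving out knockout library 2 or 3, or wild-type library 1, left no gene of the list called lower, and leaving out wild-type library 2 left 1, without any 1 knockout library none was called higher, and without any 1 wild-type library 1 was called higher.

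**Figure D5:**
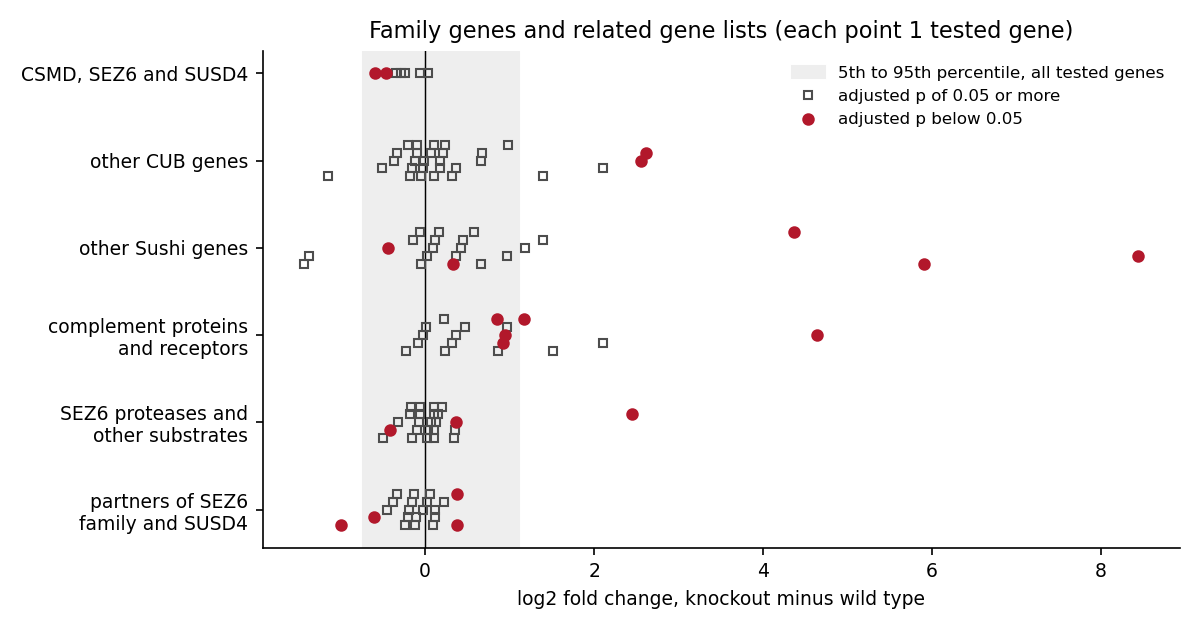
Log2 fold change, knockout minus wild type, of the 7 family genes and of the tested genes in 5 related lists, 1 point per gene; filled circles passed the threshold and the grey band is the 5th to 95th percentile of all tested genes. The largest rises are in the Sushi and complement lists; the points of Srpx2 (8.44) and C5ar1 (4.64) are fitted values that rest on 0 and 7 wild-type counts and measure no fold.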

How the data were processed

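Total RNA of embryonic day 18 cortex was sequenced in 3 Csmd3 knockout and 3 wild-type libraries. The table deposited by the authors holds estimated counts per gene. Low values are in excess at multiples of 4, so about 4 counts stand for 1 fragment. Per the submitters' processing notes, HISAT2 2.0.5, StringTie 1.3.4, Trim Galore 0.4.4 and FastQC 0.11.9 were used with build mm10. The sources used here do not give the counting program, annotation release or strand setting. Gene identifiers were named through GENCODE M21 (55141 of 55401 rows).

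Counts, which the authors deposited without scaling, were filtered with filterByExpr and scaled by TMM. They were then tested with edgeR 4.0.16 (quasi-likelihood, robust, R 4.3.3) with Benjamini-Hochberg adjustment over 19844 genes and a threshold of 0.05. Intervals on single fold changes use the fit's standard error, and fragment-based intervals and floors cover counting error only. Levels per length used the union of annotated exons, and shares were compared by exact permutation (scipy 1.17.1). Alternatives were DESeq2 1.42.0, RLE or upper-quartile scaling, other filters, counts divided by 4, a replicate block and leaving out libraries; scaling to pan-neuronal markers and adding Gm21984 to Sez6l2 were chosen after seeing the data.

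The 7 genes and all lists were chosen with earlier results of these data known. Named from each list were up to 4 genes past the threshold with the largest absolute log2 fold change, and for Csmd3, Sez6 and Sez6l the 3 genes with the nearest profile; some genes that this rule chose are not reported here. Genes C1ra, C1s1, Masp1 and Masp2 stand in both the CUB and complement lists, and C2 and Cfb in both the Sushi and complement lists.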

Additional observations from a re-analysis of the deposited data

How the results depend on the processing

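Csmd3 and Sez6l2 kept a log2 fold change below 0 under every alternative run, but not their calls. With a replicate block Csmd3 was at -0.58 (adjusted p = 0.0664) and 1 of the 7 genes was called lower. Without knockout libraries 2 and 3 together Csmd3 was at -0.60 and Sez6l2 at -0.36, with 0 of the 7 called. Scaled to pan-neuronal genes, Csmd3 was at -0.22, Sez6l2 at -0.09 and Sez6 at 0.40, with 1 gene higher and 0 lower. The causes were not tested. With DESeq2, both stayed past the threshold, at -0.59 and -0.46. Leaving out 1 library gave -0.48 to -0.17 for Csmd1, -0.13 to 0.04 for Csmd2, -0.67 to -0.52 for Csmd3, -0.06 to 0.12 for Sez6, -0.36 to -0.09 for Sez6l, -0.52 to -0.37 for Sez6l2 and -0.35 to -0.22 for Susd4, with 0 to 0 of the 7 called higher and 0 to 3 lower.

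The list counts that follow stand beside large shifts over all genes. With pan-neuronal scaling 5238 of 19844 tested genes were higher and 85 lower, against 1033 and 503 in the main fit. More higher genes in a list under that scaling are therefore not a result about the list. Other CUB genes had 1 higher gene with a filter of 1 CPM and 9 with pan-neuronal scaling. They had 2 lower with DESeq2 and 1 with the replicate block. Other Sushi genes had 2 higher without knockout libraries 2 and 3 and 9 with pan-neuronal scaling, and 0 lower under both, with upper-quartile scaling, with the replicate block and with TMM factors computed without non-neural and 2-fold genes. Complement genes had 0 higher without knockout libraries 2 and 3 and 9 with pan-neuronal scaling. SEZ6 proteases and substrates had 1 higher with RLE scaling, the 1 CPM filter or counts divided by 4, 0 with the replicate block or without knockout libraries 2 and 3, and 11 higher and 0 lower with pan-neuronal scaling. Partners had 1 higher with the replicate block, 0 without knockout libraries 2 and 3, and 7 higher and 1 lower with pan-neuronal scaling. Leaving out 1 library gave 1 to 2 higher and 0 to 1 lower CUB genes, 3 to 5 and 0 to 2 Sushi genes, 1 to 5 and 0 to 0 complement genes, 0 to 3 and 0 to 1 SEZ6 proteases and substrates, and 0 to 1 and 0 to 3 partners.

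Over all genes, 1033 were higher and 503 lower, against 686 and 255 with the replicate block, 262 and 43 without knockout libraries 2 and 3, 5238 and 85 with pan-neuronal scaling, 1420 and 792 with DESeq2, and from 472 and 137 (without knockout library 3) to 1402 and 956 (without wild-type library 3) with 1 library left out. Same-numbered libraries did not deviate together over all genes (r of 0.028, -0.003 and 0.002 for numbers 1, 2 and 3, across genes, which are not independent replicates). No label says that the numbers pair the libraries, and these r values cannot exclude a pairing. With the replicate block the SE of Sez6l went from 0.17 to 0.07 and that of Csmd3 from 0.13 to 0.14. The longest transcript as length kept the order of levels. At 136 to 248 fragments, Csmd3 has the least depth of the 7.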
